A study of Mus musculus with 8 samples.

Results

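The mouse genes Rgs1, Rgs2, Rgs3, Rgs10, Rgs14, Rgs16 and Rgs19 encode regulators of G-protein signalling (RGS proteins), and their levels were followed in CD4+ T cells sorted from the liver of newborn mice. These 7 genes were picked by symbol from the 52997 symbols of the count table. Each of the 7 passed the filter on low counts, which 11490 symbols passed. They were picked with earlier results of these libraries known, and which of their values decided the choice is not recorded. Their differences between PD-1+ and PD-1- cells are therefore given below as a description without a test. The test results given for age, and for a change of the PD-1 difference with age, may not be strictly independent of the choice.

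A G-protein coupled receptor that has bound its ligand loads the alpha subunit of a G protein with GTP, and the alpha and beta-gamma subunits then signal until that GTP is hydrolysed. RGS proteins bind the active alpha subunit and speed up this hydrolysis, so they shorten the signal. T cells use receptors of this class, mainly coupled to Gi proteins, to follow chemokines and sphingosine-1-phosphate between blood, lymphoid organs and tissue.

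The study profiled Foxp3- CD4+ T cells from the liver of Aire-deficient C57BL/6 mice, which lack the thymic factor that drives the display of self antigens to developing T cells. The 4 groups were PD-1+ cells at 10 days of age, PD-1- cells at 10 days, PD-1+ cells at 5 days and PD-1- cells at 5 days, with 2 libraries each. The mice of all groups were of the strain labelled Aire- Foxp3 GFP+ (C57/Bl6), so no group carries a working Aire and the reporter gene was used to leave out Foxp3+ regulatory cells. Viable CD45+ TCRb+ CD4+ cells were sorted, and PD-1, an inhibitory receptor that T cells display after stimulation, divided them. The labels do not say how many mice gave the cells of a library or which libraries came from separate mice, so p-values measure the spread between libraries. Each library is bulk RNA, in which fewer cells of a type and less RNA per cell cannot be told apart.

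Library totals ran between 1473216 and 3019551 counts. Pdcd1, the gene of PD-1, had 695.6 and 499 CPM in 10-day PD-1+ cells, against 1.30 and 1.95 CPM in 10-day PD-1- cells. In the 5-day libraries it had 317 and 269 CPM in PD-1+ cells, against 1.62 and 0.568 CPM in PD-1- cells. CPM, the usual scaled count, here uses the library's total over the tested genes multiplied by its TMM factor. T cell markers (Cd3d, Cd3e, Cd3g, Trac, Cd4 and Lat) summed to 3062 to 5177 CPM in the 8 libraries and none was at 0 in any group. Endothelial and stromal markers summed to 99.0 to 379 CPM, where only 1 of the 6 genes passed the filter on low counts. The other summed lists reached at most 77.2 CPM in any library, for CD8 T, B, megakaryocyte, macrophage, neutrophil, dendritic, NK, hepatocyte and erythroid cells. None of these markers was at 0 in all libraries. Both 5-day libraries numbered 3 had 1 and 5 Xist counts with 601 and 672 counts of Y-linked genes in PD-1+ and PD-1- cells. The other 6 libraries had 698 to 1842 Xist counts and 0 Y-linked counts. All 10-day libraries were thus of the female pattern, and the age and interaction values of Rgs16, Rgs2 and Rgs3 are also given without that 5-day pair.

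Rgs1, Rgs2 and Rgs16 lie on mouse chromosome 1 (GRCm38, GENCODE M21). Rgs2 (chr1:143999338-144004161, minus strand) and Rgs1 (chr1:144242296-144249242, minus strand) belong to a run of Rgs genes, with Rgs13 between them and Rgs21 and Rgs18 beyond Rgs1. Rgs16 (chr1:153740349-153745468, plus strand) lies farther along beside Rgs8, 40025 bases away. Rgs3 is on chromosome 4, Rgs10 on chromosome 7, Rgs14 on chromosome 13 and Rgs19 on chromosome 2. The promoter sequences of Rgs2 and Rgs16 are shown because these are the members whose level changed with age in PD-1+ cells. RefSeq (GRCm38.p6) gave 8 promoter windows for 5 of the 7 genes, with no entry used for Rgs1 and Rgs14. The 250 bases before each start are written 5′ to 3′ on the strand of the gene, and capitals mark every match of the NF-kB pattern (GGG, any 5 bases, CC) on either strand, with overlapping matches joined.
Rgs2 (chr1:144004150-144004399, minus strand): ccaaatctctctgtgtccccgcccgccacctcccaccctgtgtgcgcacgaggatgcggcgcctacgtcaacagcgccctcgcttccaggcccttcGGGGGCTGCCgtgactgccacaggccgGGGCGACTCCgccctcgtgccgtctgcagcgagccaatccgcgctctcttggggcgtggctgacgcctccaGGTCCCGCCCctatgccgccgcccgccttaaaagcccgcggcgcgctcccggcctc
Rgs16 (chr1:153740103-153740352, plus strand): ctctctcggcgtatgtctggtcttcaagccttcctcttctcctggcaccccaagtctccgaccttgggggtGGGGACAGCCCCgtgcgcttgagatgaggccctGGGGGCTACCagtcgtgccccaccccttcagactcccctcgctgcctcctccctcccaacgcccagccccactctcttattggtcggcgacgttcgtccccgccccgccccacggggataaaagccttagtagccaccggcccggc
The NF-kB pattern was found in 45.8% of all 32851 promoter windows of the same length, and nothing is drawn from its presence here. Neither window holds a match of TGANTCA (the AP-1 pattern, in 6.75% of all windows), TGACGTCA (cyclic AMP response element, 1.55%), TGGAAA (NFAT, 18.6%) or TGTGGT (Runx, 14.0%) on either strand. The Rgs2 window was 72.4% G and C with 30 CG pairs, and the Rgs16 window was 66.4% G and C with 17 CG pairs.

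In PD-1+ cells, set against PD-1- cells of the same age, Rgs1 and Rgs16 were far higher, Rgs3 was moderately higher, Rgs10 was clearly lower and Rgs14 slightly lower. Rgs2 took opposite directions at 10 and 5 days, and Rgs19 differed little. The PD-1+ and PD-1- libraries did not overlap over both ages for 5 of the 7 genes (Rgs1, Rgs3, Rgs10, Rgs14 and Rgs16), where 34.8% of all tested genes did not overlap. Within a single age, with 2 libraries a side, all 7 genes were apart, where 64.8% of all tested genes were apart at 10 days and 68.7% at 5 days. Of all tested genes, 41.4% were called for PD-1 over both ages (edgeR, adjusted p below 0.05), 29.3% at 10 days and 34.3% at 5 days. Because the genes may have been picked on this contrast, nothing is read from their share.

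**Figure D1:**
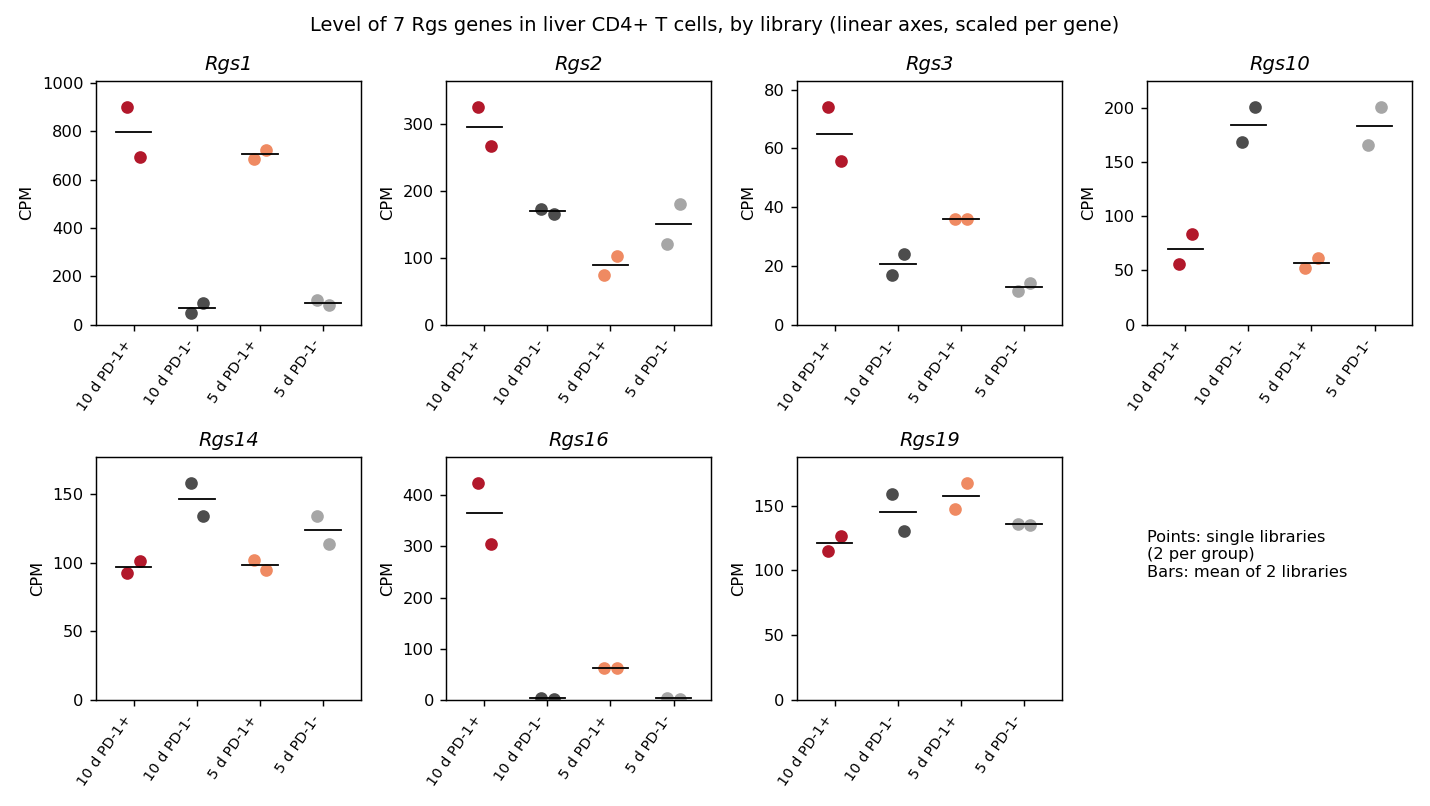
Level of each of the 7 Rgs genes in CPM on the vertical axis (linear, starting at 0, scaled per gene) in every library, by group. Points are single libraries and bars the mean of 2 libraries. Rgs16 is near 0 in all PD-1- libraries and reaches 424 CPM in a 10-day PD-1+ library, while Rgs2 is highest in the 10-day and lowest in the 5-day PD-1+ libraries.

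Rgs1, which in mice and humans restrains the response of lymphocytes to chemokines, was the member with the most counts in PD-1+ cells. It had 899.7 and 691 CPM in 10-day PD-1+ cells, against 48.6 and 88.5 CPM in 10-day PD-1- cells. In the 5-day libraries it had 683 and 724 CPM in PD-1+ cells, against 100.5 and 79.5 CPM in PD-1- cells. The lowest PD-1+ library was thus several times above the highest PD-1- library. The fitted log2 fold change was 3.57 ± 0.26 (SE) at 10 days and 2.96 ± 0.25 at 5 days, or 3.26 ± 0.21 over both ages.

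Rgs16, which in mice limits chemokine-driven migration of activated T cells, had the largest PD-1 difference of the 7 genes as a fold. Its level was 424 and 305 CPM in 10-day PD-1+ cells, against 4.21 and 2.60 CPM in 10-day PD-1- cells. At 5 days it was 62.3 and 62.5 CPM in PD-1+ cells, against 4.54 and 2.27 CPM in PD-1- cells. Every PD-1+ library was above every PD-1- library, and the 10-day PD-1+ libraries stood above the 5-day ones. The log2 fold change was 6.63 ± 0.30 at 10 days and 4.07 ± 0.31 at 5 days. The PD-1- levels rest on 4 to 14 counts per library, and without the 5-day PD-1- library numbered 2 the 5-day value was 4.75. The antisense gene Gm28513 shares exon bases with Rgs16 but had at most 2 counts in any library.

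Rgs3, which acts on Gi and Gq alpha subunits, had 74.1 and 55.9 CPM in 10-day PD-1+ cells, against 16.8 and 24.1 CPM in 10-day PD-1- cells. At 5 days the levels were 36.0 and 35.8 CPM in PD-1+ cells, against 11.3 and 14.2 CPM in PD-1- cells. The populations did not overlap, and the log2 fold change was 1.70 ± 0.30 at 10 days and 1.51 ± 0.32 at 5 days.

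Rgs10, a small RGS protein of Gi alpha subunits found in lymphocytes and microglia, ran the other way. It had 55.6 and 83.3 CPM in 10-day PD-1+ cells, against 168 and 201 CPM in 10-day PD-1- cells. At 5 days it had 52.0 and 61.1 CPM in PD-1+ cells, against 166 and 201 CPM in PD-1- cells. The PD-1+ libraries all lay below the PD-1- ones, with a log2 fold change of -1.41 ± 0.21 at 10 days and -1.69 ± 0.21 at 5 days.

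Rgs14, which besides its RGS domain carries Ras-binding domains and a motif that holds inactive Gi alpha subunits, had 92.2 and 101 CPM in 10-day PD-1+ cells, against 158 and 134 CPM in 10-day PD-1- cells. At 5 days it had 102 and 95.0 CPM in PD-1+ cells, against 134 and 114 CPM in PD-1- cells. The gap between the populations was narrow, with a log2 fold change of -0.60 ± 0.18 at 10 days and -0.34 ± 0.18 at 5 days.

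Rgs19, also called GAIP, binds the scaffold protein encoded by Gipc1. It had 115 and 127 CPM in 10-day PD-1+ cells, against 159 and 131 CPM in 10-day PD-1- cells. At 5 days it had 148 and 168 CPM in PD-1+ cells, against 136 and 135 CPM in PD-1- cells. The log2 fold changes of -0.27 ± 0.17 at 10 days and 0.22 ± 0.17 at 5 days were small and opposite in sign, and over both ages the populations overlapped (-0.02 ± 0.14).

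Rgs2, which in biochemical assays prefers Gq alpha subunits, had PD-1 differences of opposite sign at 10 and 5 days that were larger than those of Rgs19. It had 325 and 267 CPM in 10-day PD-1+ cells, against 173 and 165 CPM in 10-day PD-1- cells. At 5 days it had 74.6 and 103 CPM in PD-1+ cells, against 120.2 and 180.0 CPM in PD-1- cells. The 10-day PD-1+ libraries were the highest of all and the 5-day PD-1+ libraries the lowest. The log2 fold change was 0.81 ± 0.20 at 10 days and -0.75 ± 0.21 at 5 days, and without the 5-day PD-1- library numbered 3 the 5-day value was -0.43. Over both ages it came to 0.05 ± 0.33. Among all tested genes, 18 of 11490 were called at both ages with opposite signs. Because Rgs2 may have been picked on this contrast, nothing is read from that count.

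**Figure D2:**
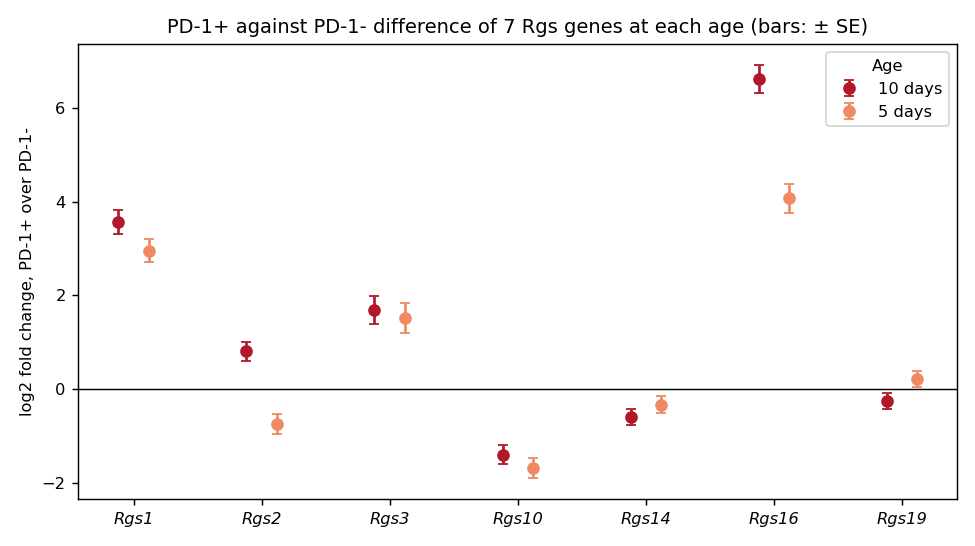
Log2 fold change of PD-1+ over PD-1- cells (vertical axis) for each of the 7 Rgs genes at 10 days (dark) and 5 days (light), with bars of ± 1 SE from the edgeR fit of 8 libraries. Rgs2 lies above 0 at 10 days and below 0 at 5 days, and Rgs16 lies at 6.63 at 10 days and 4.07 at 5 days.

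To compare levels between the genes, CPM were divided by the length of the principal transcript in kb. In 10-day PD-1+ cells Rgs1 led with a mean of 207 CPM per kb and Rgs16 followed with 156 CPM per kb, and the libraries of these neighbours overlapped. Rgs2 came next with 98.0 CPM per kb, then Rgs19 with 80.0 CPM per kb and Rgs10 with 78.9 CPM per kb, which also overlapped. In 5-day PD-1+ cells Rgs1 (183 CPM per kb) was followed by Rgs19 (104 CPM per kb) and Rgs10 (64.3 CPM per kb), and Rgs2 (29.3 CPM per kb) and Rgs16 (26.7 CPM per kb) overlapped near the bottom of the order. Rgs3 was lowest in PD-1+ cells at either age, with 16.7 CPM per kb at 10 days and 9.24 CPM per kb at 5 days.

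In PD-1- cells the order of the 7 genes by principal transcript length was the same at both ages. Rgs10 led with 209.9 CPM per kb at 10 days and 209 CPM per kb at 5 days, followed by Rgs19 (95.9 and 89.6 CPM per kb at 10 and 5 days). Rgs14 and Rgs2 came next and overlapped at both ages, at 62.0 and 56.0 CPM per kb at 10 days and 52.6 and 49.7 CPM per kb at 5 days. Rgs1, Rgs3 and Rgs16 were lowest in that order, Rgs16 with 1.46 CPM per kb at both ages. Neighbours not named as overlapping did not overlap in the 2 libraries of the group.

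The summed level of the 7 genes was 678 CPM per kb (634 and 721 in the 2 libraries) in 10-day PD-1+ cells, against 448 CPM per kb (440 and 457) in 10-day PD-1- cells. At 5 days it was 459 CPM per kb (439 and 479) in PD-1+ cells, against 429 CPM per kb (406 and 451) in PD-1- cells. The 10-day PD-1+ libraries thus lay above the other 6, which spanned 406 to 479 CPM per kb. The make-up differed more than the sum. Rgs1 and Rgs16 supplied 30.4% and 22.9% of the sum in 10-day PD-1+ cells, and 3.96% and 0.326% in 10-day PD-1- cells. Rgs10 supplied 11.8% in 10-day PD-1+ cells, against 46.8% in 10-day PD-1- cells. In 5-day cells Rgs1 supplied 40.0% in PD-1+ cells, against 5.51% in PD-1- cells, and Rgs10 supplied 14.0% in PD-1+ cells, against 48.6% in PD-1- cells. With lengths of all annotated exons in place of the principal transcript, Rgs16 (156 CPM per kb) stood above Rgs1 (114.5 CPM per kb) in 10-day PD-1+ cells without overlap, so the leading gene there depends on the length used. In PD-1- cells those lengths put Rgs2 above Rgs14 without overlap at both ages, and Rgs16 and Rgs3, which overlapped, changed places between 10 and 5 days.

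**Figure D3:**
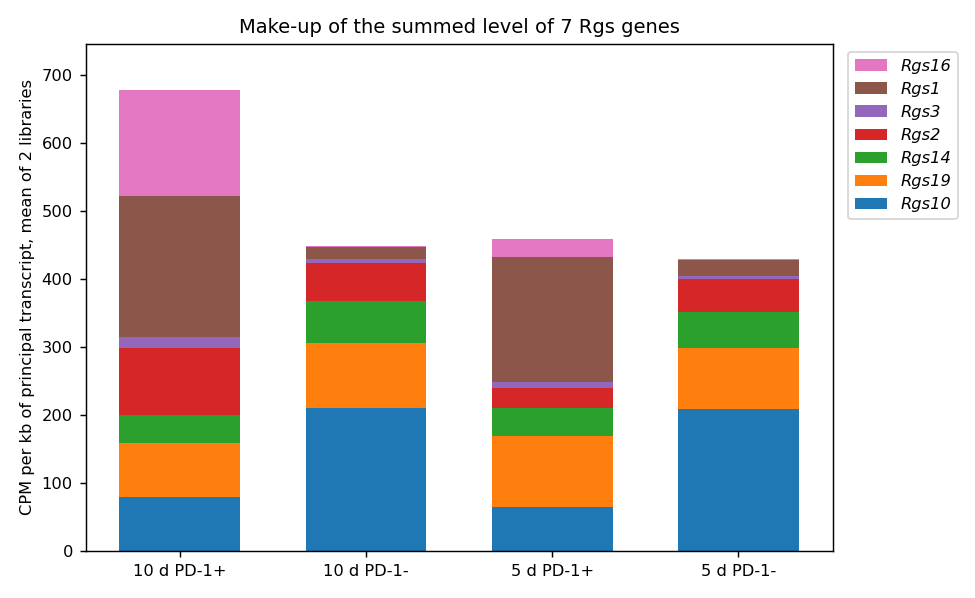
Mean level of the 7 Rgs genes in CPM per kb of principal transcript (vertical axis, from 0), stacked by gene, in each group of 2 libraries. The bar of 10-day PD-1+ cells reaches 678 CPM per kb with large Rgs1 and Rgs16 segments, and Rgs10 is the largest segment of both PD-1- bars.

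The age comparison asks which genes differed between 10 and 5 days of age within a sorted population. In PD-1+ cells Rgs16 and Rgs2 rose with age, by a log2 fold change of 2.55 ± 0.22 for Rgs16 (10 over 5 days, edgeR quasi-likelihood adjusted p = 1.90e-06) and 1.74 ± 0.21 for Rgs2 (adjusted p = 7.10e-05). These are 5.84-fold and 3.34-fold increases, and both 10-day libraries were above both 5-day libraries for each gene. These 2 of 7 genes were the members called, and DESeq2 called 2 as well, where 14.4% of all tested genes were called. That background of 1651 genes was 727 without the 10-day PD-1+ library 1, 1082 without the 10-day PD-1+ library 2, 481 without the 5-day PD-1+ library 2 and 797 without the 5-day PD-1+ library 3. Ranked by p, Rgs16 stood at place 12 and Rgs2 at place 73 of 11490 genes. Both genes were called under each of 14 alternatives, with values of 2.29 to 2.76 for Rgs16 and 1.53 to 1.99 for Rgs2. Without the 5-day pair numbered 3 the values were 2.54 for Rgs16 (adjusted p = 8.18e-05) and 1.98 for Rgs2 (adjusted p = 0.000159).

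The other 5 members did not pass the test of age in PD-1+ cells. Rgs3 came closest, at 0.85 ± 0.28 with an adjusted p of 0.0535 in edgeR, and its 10-day libraries (74.1 and 55.9 CPM) lay above its 5-day libraries (36.0 and 35.8 CPM). Its adjusted p was 0.0336 when only the 4 PD-1+ libraries were fitted, 0.0415 with no filter, 0.0438 without the 5-day PD-1- library numbered 2 and 0.0456 without that numbered 3. Without the 5-day pair numbered 3 it was 0.84 (adjusted p = 0.177). Over all 14 alternatives the adjusted p of Rgs3 ran between 0.0336 and 0.32. Rgs19 had a value of -0.38 ± 0.17 (edgeR adjusted p = 0.148), with 10-day libraries below 5-day libraries. Rgs1 (0.18 ± 0.23), Rgs10 (0.29 ± 0.22) and Rgs14 (-0.03 ± 0.18) had overlapping libraries. In all, 4 of 7 members (Rgs2, Rgs3, Rgs16 and Rgs19) did not overlap between the ages in PD-1+ cells, where 58.5% of all tested genes did not overlap.

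In PD-1- cells 0 of 7 members were called for age with edgeR, 0 at an unadjusted p below 0.05 and 0 with DESeq2, where 0.27% of all tested genes were called. Rgs16 had a value of -0.01 ± 0.46 and Rgs2 of 0.18 ± 0.21 in these cells. Only Rgs3, at 0.67 ± 0.33 (edgeR adjusted p = 0.495), had 10-day libraries (16.8 and 24.1 CPM) apart from its 5-day libraries (11.3 and 14.2 CPM), where 39.9% of all tested genes were apart. The count over all genes was 31, and it moved by over 1.5 times, to between 5 and 83, when any 1 of the 8 libraries was left out.

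The interaction tests whether the PD-1 difference at 10 days differs from that at 5 days. It is built from those differences, so its p-values may not be independent of how the genes were picked. It was called for Rgs2, at 1.55 ± 0.29 (edgeR adjusted p = 0.0123), and for Rgs16, at 2.56 ± 0.52 (edgeR adjusted p = 0.0171). These are 2 of 7 members by edgeR and 2 by DESeq2, where 2.12% of all tested genes were called. For Rgs2 the difference changed direction, while for Rgs16 it pointed the same way at both ages and was larger at 10 days. The values were -0.49 ± 0.24 for Rgs19 (edgeR adjusted p = 0.353) and 0.61 ± 0.35 for Rgs1 (edgeR adjusted p = 0.446), and the interaction was not called for Rgs3 (0.19, or 0.01 without the 5-day pair numbered 3), Rgs10 and Rgs14 either.

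With 2 libraries per group the interaction calls depend on single libraries, while both differences stayed positive, at 1.22 to 1.83 for Rgs2 and 1.88 to 3.03 for Rgs16. The count over all genes, 244, was 57 without the 5-day PD-1+ library 2, 86 and 100 without the 10-day PD-1- libraries 1 and 2, 91 without the 10-day PD-1+ library 1, 104 without the 5-day PD-1+ library 3 and 124 without the 5-day PD-1- library 2. Rgs2 lost its call without the 10-day PD-1- library 1 (1.59, adjusted p = 0.0695 in edgeR), the 10-day PD-1- library 2 (1.52, adjusted p = 0.0688), the 10-day PD-1+ library 1 (1.40, adjusted p = 0.0568) and the 5-day PD-1+ library 2 (1.35, adjusted p = 0.1001). Rgs16 lost its call without the 5-day PD-1- library 2 (1.88, adjusted p = 0.346 in edgeR), where the value rests on 4 counts in the remaining library. It also lost it without the 10-day PD-1- library 1 (3.03, adjusted p = 0.0579) or 2 (2.35, adjusted p = 0.0676), the 10-day PD-1+ library 1 (2.30, adjusted p = 0.0673), and the 5-day PD-1+ library 2 (2.55, adjusted p = 0.0653) or 3 (2.56, adjusted p = 0.0508). Over all 14 alternatives, DESeq2 included, the adjusted p ran between 7.47e-07 and 0.1001 for Rgs2 and between 0.000139 and 0.346 for Rgs16. Without the 5-day pair numbered 3 both were called, at 1.47 for Rgs2 (edgeR adjusted p = 0.0312) and 2.84 for Rgs16 (edgeR adjusted p = 0.0229).

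Other genes moved with age in the same PD-1+ libraries. Of 17 immediate-early and dissociation genes, which respond within minutes to receptor signals and also to the handling of tissue, 9 rose and 0 fell with age in PD-1+ cells, where 7.39% of all tested genes rose and 6.98% fell (edgeR). At an unadjusted p below 0.05, and with DESeq2, 0 of them fell. Egr1, an early transcription factor, rose by 1.61 ± 0.23 (edgeR adjusted p = 0.000281) and Dusp1, a phosphatase of MAP kinases, by 1.39 ± 0.15 (edgeR adjusted p = 1.97e-05). In PD-1- cells 3 of the 17 rose with age (Dusp1, Junb and Ppp1r15a), where 0.148% of all tested genes rose and 0.122% fell. In these cells 0 of the 17 fell by edgeR, at an unadjusted p below 0.05 or by DESeq2. The members of the list varied in their change with age. Dusp1 had 1.39 ± 0.15 in PD-1+ and 1.19 ± 0.15 in PD-1- cells (edgeR adjusted p = 0.00289 in PD-1- cells), while Atf3 had 1.87 ± 0.54 in PD-1+ and -0.07 ± 0.98 in PD-1- cells. Socs3 had 1.05 ± 0.26 in PD-1+ and -0.38 ± 0.27 in PD-1- cells, Fosb 1.56 ± 0.39 and 0.45 ± 0.44, and Egr1 1.61 ± 0.23 and 0.67 ± 0.23 in the same order. The interaction was called for 0 of the 17 by edgeR, where 2.12% of all tested genes were called. It had 3 at an unadjusted p below 0.05 and 1 called by DESeq2. Between PD-1+ and PD-1- cells over both ages, where 21.9% of all tested genes were higher and 19.6% lower, 7 of the 17 were higher and 1 lower, with a median log2 fold change of 0.26. Nr4a1 was higher by 1.59 ± 0.16, Junb by 1.35 ± 0.13 and Dusp1 by 1.23 ± 0.13, and Jun was lower at -1.45 ± 0.24. Ier2 (0.13 ± 0.41) and Ppp1r15a (0.12 ± 0.13) were not called. The lower count was 2 without the 10-day PD-1+ library 2 and 2 without the 5-day PD-1- library 3. Pdcd1 rose with age in PD-1+ cells by 1.03 ± 0.18 (edgeR adjusted p = 0.00133).

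**Figure D4:**
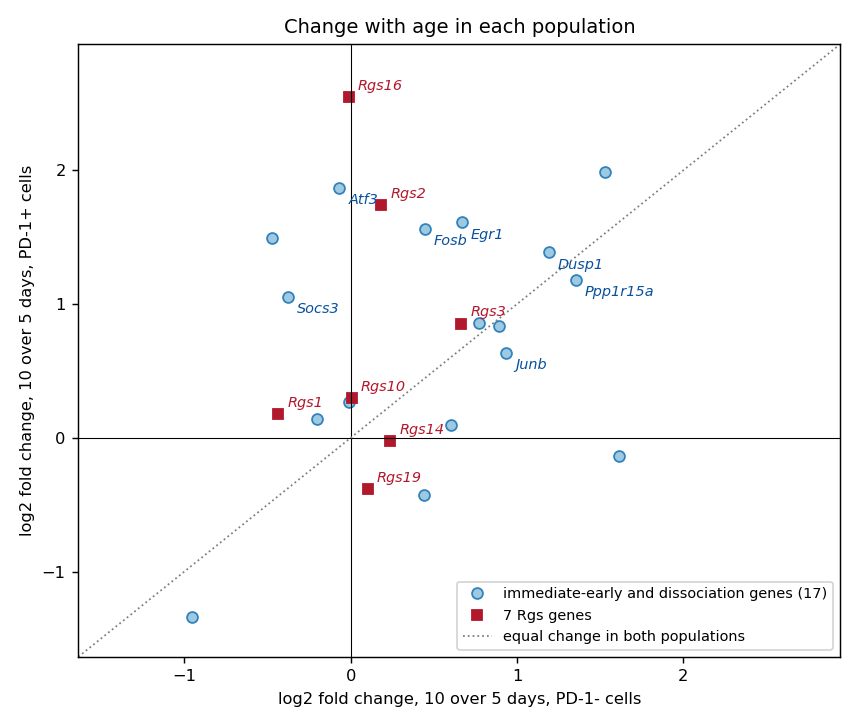
Log2 fold change of 10 over 5 days in PD-1+ cells (vertical axis) against that in PD-1- cells (horizontal axis), for the 7 Rgs genes (squares) and 17 immediate-early and dissociation genes (circles). The dotted line marks equal change in both populations. Rgs16 and Rgs2 lie far above it at 2.55 and 1.74 in PD-1+ cells with -0.01 and 0.18 in PD-1- cells, as do Atf3 at 1.87 and Socs3 at 1.05 in PD-1+ cells, and Dusp1, Junb and Ppp1r15a lie near the line.

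Markers of other cells were also followed beside the rise of Rgs16 and Rgs2. Of all tested genes 7.39% were called higher and 6.98% lower with age in PD-1+ cells. T cell markers summed to 4354 and 5177 CPM in 10-day PD-1+ libraries, against 3062 and 3189 CPM in 5-day PD-1+ libraries, with 4 of 6 called higher and 1 lower. The 2 CD8 markers summed to 21.1 and 27.4 CPM at 10 days, against 6.18 and 6.68 CPM at 5 days (1 of 2 called higher). The 7 macrophage and Kupffer cell markers summed to 41.1 and 47.4 CPM at 10 days, against 20.6 and 28.6 CPM at 5 days (1 of 3 tested called higher). The 5 dendritic markers summed to 52.7 and 58.4 CPM at 10 days, against 30.4 and 31.5 CPM at 5 days, and the 5 megakaryocyte and platelet markers to 8.43 and 8.55 CPM, against 2.39 and 3.09 CPM. No marker was called in the dendritic (2 tested) list, and none of the megakaryocyte list was tested. NK and innate lymphoid markers summed to 4.57 and 5.34 CPM at 10 days, against 0.515 and 3.82 CPM at 5 days. The sums of the remaining lists overlapped between the ages. B cell markers, for example, had 24.2 and 42.7 CPM at 10 days, against 28.8 and 48.2 CPM at 5 days. Hepatocyte markers had 55.5 and 65.2 CPM, against 24.8 and 76.2 CPM. Endothelial, neutrophil and erythroid sums overlapped as well. The part of these cells, of the immediate-early genes or of the sex pattern in the rise of Rgs16 and Rgs2 was not tested.

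Between PD-1+ and PD-1- cells, 5 hepatocyte markers summed to 24.8 to 76.2 CPM in PD-1+ libraries, against 9.65 to 18.8 CPM in PD-1- libraries, with 3 of 4 tested called higher. Calls in this paragraph are over both ages, where 21.9% of all tested genes were higher and 19.6% lower. Endothelial and stromal markers summed to 99.0 to 144 CPM in PD-1+ libraries, against 295 to 379 CPM in PD-1- libraries, and the 1 gene tested was called lower. Of the 6 genes in that list, 3 were at 0 in 10-day PD-1- cells and 2 in 5-day PD-1- cells. Its sum thus rests on few genes and does not measure the number of such cells. Erythroid markers summed to 2.06 to 4.99 CPM in PD-1+ libraries, against 10.4 to 29.8 CPM in PD-1- libraries, and the 1 tested was called lower. NK and innate lymphoid markers summed to 0.515 to 5.34 CPM in PD-1+ libraries, against 1.62 to 20.4 CPM in PD-1- libraries (2 of 3 tested lower). Dendritic markers summed to 30.4 to 58.4 CPM in PD-1+ libraries, against 8.52 to 21.5 CPM in PD-1- libraries (1 of 2 tested higher). The CD8 pair summed to 6.18 to 27.4 CPM in PD-1+ libraries, against 27.5 to 47.6 CPM in PD-1- libraries (1 of 2 lower), and macrophage and Kupffer markers to 20.6 to 47.4 CPM, against 24.3 to 48.3 CPM (1 of 3 tested lower). Megakaryocyte markers summed to 2.39 to 8.55 CPM in PD-1+ libraries, against 0 to 5.20 CPM in PD-1- libraries, with none tested. B cell markers (24.2 to 48.2 CPM in PD-1+ libraries, against 9.39 to 77.2 CPM in PD-1- libraries) and neutrophil markers (2.06 to 4.77 CPM, against 0.568 to 2.59 CPM) stayed low. The part of such cells in the Rgs differences was not tested.

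Of the 16 other Rgs genes and RGS-binding proteins in the table, only Rgs11 and Rgs12 passed the filter on low counts. Rgs11 fell to 11.4, 4.92, 1.54 and 2.86 CPM in PD-1+ libraries, against 16.2, 17.6, 13.9 and 19.9 CPM in PD-1- libraries (10-day before 5-day libraries), a log2 fold change of -1.78 ± 0.44 (edgeR adjusted p = 0.00441). By age it was -1.04 ± 0.48 at 10 days (edgeR adjusted p = 0.116) and -2.88 ± 0.59 at 5 days (edgeR adjusted p = 0.00124), with an interaction of 1.84 ± 0.77 (edgeR adjusted p = 0.262). The gene shares exon bases with Arhgdig on the opposite strand, and without a stated strand setting the reads of the pair cannot be told apart. Rgs12, a large relative of Rgs10 and Rgs14, had a value of -0.42 ± 0.42 (edgeR adjusted p = 0.454). Rgs4 had 0 counts in all 8 libraries, which allows up to 0.156 CPM by a floor of 3 counts over all libraries together. Rgs13, which lies between Rgs2 and Rgs1, had 3 counts in all. Rgs8, the neighbour of Rgs16, had 10 and 6 counts in 10-day PD-1+ libraries, 1 and 1 in 5-day PD-1+ libraries and 0 in the 4 PD-1- libraries. Rgs9, a gene best known from the retina and striatum, had 35 counts in PD-1+ libraries, against 3 in PD-1- libraries. Counts this low were not tested, and the floor given for Rgs4 covers counting error only.

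Tcea2 lies 347 bases from Rgs19 and had -1.78 ± 0.50 between PD-1+ and PD-1- cells (edgeR adjusted p = 0.0102), where Rgs19 had -0.02 ± 0.14. Uchl5, the nearest coding gene on the other side of Rgs2, 191871 bases away, fell with age in PD-1+ cells by 0.75 on the log2 scale (edgeR adjusted p = 0.00809).

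Other genes of G-protein signalling differed between PD-1+ and PD-1- cells in both directions. Over both ages 21.9% of all tested genes were higher and 19.6% lower. Of 10 tested G alpha genes, 4 were higher and 2 lower (edgeR; the median log2 fold change of the 10 was 0.36, against -0.01 over all tested genes). Gna15, a Gq-class alpha subunit of blood cells, was higher by 5.41 ± 0.30 (adjusted p = 4.89e-09 in edgeR), at 73.9 ± 16.5 CPM in PD-1+ cells and 1.66 ± 0.38 CPM in PD-1- cells (SD, n = 4 libraries each). Gnaq, the ubiquitous Gq subunit, was higher by 2.97 ± 0.60. Gna13, an alpha subunit of the G12 class, was higher by 0.81 ± 0.14. Gnai3, a Gi subunit, was higher by 0.49 ± 0.13, at 552 ± 76.0 CPM in PD-1+ cells and 389 ± 32.2 CPM in PD-1- cells. Gnai2, another Gi subunit, was not called (0.22 ± 0.12, 184 ± 22.7 CPM in PD-1+ cells and 158 ± 21.5 CPM in PD-1- cells), nor was Gnal (-0.41 ± 0.24). The lower genes were Gna11 and Gna12, whose count was not stable: it was 0 without either 5-day library numbered 3, 1 without any of the 4 10-day libraries or the 5-day PD-1+ library 2, and 2 without the 5-day PD-1- library 2. None of the 10 was called for age in PD-1+ cells by edgeR or by DESeq2, with 3 at an unadjusted p below 0.05. Of all tested genes, edgeR called 14.4% for age in these cells.

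Among 10 tested G beta and gamma genes, 4 had higher and 1 had lower levels in PD-1+ cells, with a median log2 fold change of 0.31. Of all tested genes 21.9% were higher and 19.6% lower. Gng2 was higher by 1.78 ± 0.19 (edgeR adjusted p = 3.38e-06), Gnb1 by 0.60 ± 0.13, Gnb2 by 0.78 ± 0.24 and Gng10 by 1.14 ± 0.41, and Gngt2 was lower, at -1.67 ± 0.45. The higher count was 2 without the 10-day PD-1- library 1 or without the 5-day PD-1+ library 2. Gnb4 (0.17 ± 0.27) and Gng5 (0.26 ± 0.24) were not called. With age in PD-1+ cells 1 of the 10 fell (Gng12, by 1.40 on the log2 scale, edgeR adjusted p = 0.0435), and 0 did by DESeq2. By edgeR 6.98% of all tested genes fell.

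Few receptor kinases, arrestins and other regulators of G proteins were called over both ages, where 41.4% of all tested genes were called. Of 12 tested, 1 was higher (Ric8a, a chaperone of alpha subunits, 0.45 ± 0.14, edgeR adjusted p = 0.0188) and 0 were lower by edgeR. At an unadjusted p below 0.05 2 were higher and 0 lower, and DESeq2 likewise called 2 higher and 0 lower. Without 10-day library 1 of PD-1+ or of PD-1- cells the higher count was 0, and it was 2 without the 10-day PD-1- library 2. Grk2, the main receptor kinase of T cells, had -0.01 ± 0.13, at 143 ± 11.1 CPM in PD-1+ cells and 144 ± 14.4 CPM in PD-1- cells. Gpsm2 had 0.26 ± 0.62. Gipc1, the partner of Rgs19, had 0.32 ± 0.18 (edgeR adjusted p = 0.174).

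Downstream enzymes split. Of 17 tested genes of cyclic AMP signalling, 4 were higher and 4 lower over both ages, with a median log2 fold change of -0.0037. These counts lie near the share over all tested genes, of which 21.9% were higher and 19.6% lower. Adcy6, an adenylyl cyclase that Gi inhibits, was lower at -4.20 ± 0.32 (edgeR adjusted p = 1.09e-07), with 2.38 ± 0.81 CPM in PD-1+ cells and 45.2 ± 11.03 CPM in PD-1- cells. Pde3b, a cyclic AMP phosphodiesterase, was lower at -1.36 ± 0.16, while Prkar1a, a regulatory subunit of protein kinase A, was higher by 0.85 ± 0.12 and Crem, a cyclic AMP responsive factor, by 0.92 ± 0.16. Adcy7 (0.02 ± 0.15) and Prkacb (-0.32 ± 0.13) were not called. With age in PD-1+ cells Adcy7 rose by 1.20 ± 0.16, Crem by 1.00 ± 0.17 and Prkacb by 0.74 ± 0.15, and Pde4b fell by 1.18 on the log2 scale. Of all tested genes 7.39% rose and 6.98% fell in that comparison. Pde4b also had a called interaction of -1.51 ± 0.21 (edgeR adjusted p = 0.00118). It was the 1 call of that list, where 2.12% of all tested genes were called. Of 5 tested genes of phospholipase C beta and phosphoinositide 3-kinase gamma, 3 were higher (Plcb3 by 1.96 ± 0.52, Pik3cg by 0.64 ± 0.18 and Plcb4 by 1.69 ± 0.51) and 2 lower (Plcb2 at -2.32 ± 0.20 and Pik3r5 at -1.07 ± 0.15). The higher count was 1 without the 10-day PD-1+ library 2.

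Of 19 tested G-protein coupled receptors of T cells, 11 had higher and 6 had lower levels in PD-1+ cells, with a median log2 fold change of 2.15. Over all tested genes 21.9% were higher and 19.6% lower. Cxcr3, a chemokine receptor of effector T cells, was higher by 4.77 ± 0.18 (edgeR adjusted p = 3.30e-10) at 404 ± 93.0 CPM in PD-1+ cells and 15.4 ± 7.23 CPM in PD-1- cells. Adora2a, a receptor for adenosine that couples to Gs, was higher by 3.52 ± 0.24. Ltb4r1, the leukotriene B4 receptor, averaged 50.4 ± 18.5 CPM in PD-1+ cells and 0.162 ± 0.324 CPM in PD-1- cells. S1pr1, the sphingosine-1-phosphate receptor by which T cells leave tissue, was lower at -1.83 ± 0.15, with 101 ± 33.3 CPM in PD-1+ cells and 347 ± 27.7 CPM in PD-1- cells. Cxcr4 was not called (-0.76 ± 0.55). Gpr183, a receptor for oxysterols, was not called over both ages (-1.53 ± 0.58) but had a called interaction of -2.68 ± 0.32 (edgeR adjusted p = 0.000478), as had Gpr18 (-2.00 ± 0.37, edgeR adjusted p = 0.00903). Both interactions were thus opposite in sign to those of Rgs2 and Rgs16. Gpr183 averaged 17.2 CPM in 10-day PD-1+ cells against 133 CPM in 10-day PD-1- cells, and 79.5 CPM in 5-day PD-1+ cells against 96.3 CPM in 5-day PD-1- cells. With age in PD-1+ cells 2 receptors rose (Cxcr3 and Cxcr5) and 5 fell (Ccr4, Ccr7, Gpr18, Gpr183 and S1pr1) by edgeR. Over all tested genes 7.39% rose and 6.98% fell, and DESeq2 called 1 receptor higher and 5 lower.

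**Figure D5:**
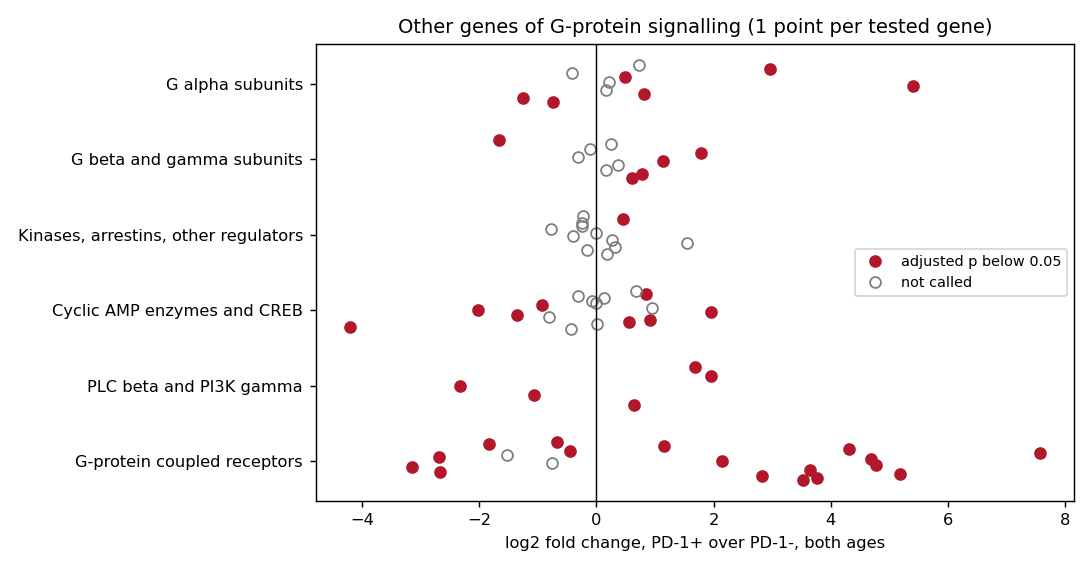
Log2 fold change of PD-1+ over PD-1- cells over both ages (horizontal axis) for the tested genes of 6 groups around RGS proteins, 1 point per gene. Filled points passed an adjusted p of 0.05 in edgeR and open points did not. Receptors spread widest, with Cxcr3 at 4.77, and Adcy6 lies at -4.20. The rightmost receptor is Ltb4r1, whose fitted value depends on the near absence of counts in PD-1- cells.

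The genes whose log2 CPM followed each member most closely over the 8 libraries were named by Pearson's r among 6995 genes. With 8 libraries in 4 groups, r mostly reflects the group means and the shared library scaling, so it is given as a description. Rgs1 was followed by Cish (r = 0.995, n = 8), a feedback inhibitor of cytokine signalling, Stx11 (0.994) and Serpinb6b (0.993). For Rgs16 they were Tigit (0.993), an inhibitory receptor, Angptl2 (0.992) and Lag3 (0.991), another inhibitory receptor. Lag3 averaged 1085 CPM in 10-day PD-1+ cells, 5.03 CPM in 10-day PD-1- cells, 91.3 CPM in 5-day PD-1+ cells and 2.72 CPM in 5-day PD-1- cells. Rgs2 was followed by Trappc13 (0.976), Srgap2 (0.969) and Serinc5 (0.968), and Rgs3 by Mical1 (0.990), Tfip11 (0.989) and Tacc1 (0.989). Rgs10 went with Smad7 (0.996), an inhibitor of TGF-beta signalling, Nisch (0.995) and Tsc22d1 (0.995), and Rgs14 with Pygm (0.975), Abhd16a (0.968) and Sh3gl1 (0.966). Rgs19 had the least close followers, Smc1a (0.970), Pus7 (0.945) and Atp2a3 (0.943). Among the members themselves, r over the 8 libraries was 0.937 for Rgs16 and Rgs1, 0.932 for Rgs16 and Rgs3, -0.951 for Rgs10 and Rgs1, 0.037 for Rgs2 and Rgs1 and -0.715 for Rgs19 and Rgs2.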

How the data were processed

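RNA of a fixed number of double-sorted cells per library was reverse transcribed with an anchored oligo(dT) primer, amplified and tagmented, per the labels. The authors deposited 1 table of raw counts per gene symbol for the 8 libraries, and 0 of its columns had no sample. The submitters' processing notes name STAR 2.5.4, featureCounts and the mm10 build. The annotation and the strand setting were not given in the sources used here. Overlapping genes may therefore share counts. Genes were kept by filterByExpr in edgeR 4.0.16 (R 4.3.3) given the 4 groups, scaled by TMM and tested with robust quasi-likelihood F tests, adjusted by the Benjamini-Hochberg method over all 11490 tested genes, with calls at an adjusted p below 0.05. The PD-1 difference over both ages came from a fit with age and PD-1 as additive terms, and the other contrasts from a fit of 4 groups. SE values were obtained as the size of the log2 fold change over the root of the F statistic. DESeq2 1.42.0 was an alternative, beside other scalings, no filter, a replicate block, fewer libraries and each library left out.

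The members and all lists (other Rgs genes, G alpha, G beta and gamma, other regulators, cyclic AMP, phospholipase C and PI3K gamma, receptors, immediate-early genes, and cell markers) were chosen with earlier results of these data known. From each list the text names up to 4 called genes with the smallest p over both ages and up to 2 uncalled ones with the highest mean CPM. For each member it names the 3 most correlated genes with a mean log2 CPM (prior count 2) of at least 4. Other genes named, such as neighbours or those behind a small count, were chosen after their values were seen. Lengths and positions are from GENCODE M21, and promoters from RefSeq. Library totals ran between 1473216 and 3019551 counts, and replicates of a group differed by more than counting error (chi-square per degree of freedom 3.86 to 8.90). The fits were also run on simulated counts in which far fewer genes differed than were called between PD-1+ and PD-1- cells here. That run therefore does not cover the scaling of these libraries.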

Additional observations from a re-analysis of the deposited data

Results flagged for a closer look

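The PD-1 difference of 2 Rgs genes differed between the ages by the interaction test, which may not be independent of how the genes were picked. For Rgs2 the log2 difference at 10 days minus that at 5 days was 1.55 ± 0.29 (edgeR adjusted p = 0.0123): PD-1+ cells were higher than PD-1- cells at 10 days and lower at 5 days. For Rgs16 it was 2.56 ± 0.52 (edgeR adjusted p = 0.0171), with PD-1+ cells higher at both ages and more so at 10 days. The direction of both differences was kept in all 8 fits that left out 1 library, while the call was lost in 4 of them for Rgs2 and in 6 for Rgs16. With 2 libraries per group no single library could be set against the others of its group.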

How the results depend on the processing

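No result of the members that was called for age or interaction changed direction under the alternatives run, and the calls of Rgs2 and Rgs16 for age in PD-1+ cells held in each. Leaving out 1 library at a time gave 3971 to 4374 called genes for PD-1 over both ages, 2203 to 3485 at 10 days and 2298 to 3936 at 5 days, 481 to 1804 for age in PD-1+ cells, 5 to 83 for age in PD-1- cells and 57 to 261 for the interaction (main counts 4761, 3364, 3936, 1651, 31 and 244). In the same fits the interaction was 1.22 to 1.83 for Rgs2 and 1.88 to 3.03 for Rgs16, and age in PD-1+ cells 0.64 to 1.04 for Rgs3, which was called with no filter (0.92) and with only the 4 libraries compared (0.84). Leaving out both 5-day libraries numbered 3, chosen after seeing the data, gave 2426 genes for PD-1 at 5 days, 943 and 72 for age in PD-1+ and PD-1- cells and 118 for the interaction, with fewer samples. No filter gave 180 genes for age in PD-1- cells and 469 for the interaction, and DESeq2 gave 77 for age in PD-1- cells. The cause of the shifts with no filter and with DESeq2 was not tested. The library numbers are not stated to pair samples. Same-numbered libraries deviated from their group means with r = 0.114 at 10 days and 0.094 at 5 days. With 2 libraries per group, differently numbered libraries give the same r with the sign turned, so this cannot decide whether same-numbered libraries share mice. At 5 days same-numbered libraries had the same sex pattern, male for number 3 and female for number 2. The main fits did not use the numbers. With the replicate block the interaction was called for 483 genes, with 1.55 for Rgs2 (edgeR adjusted p = 0.000385) and 2.61 for Rgs16 (0.00704), and PD-1 for 4399 genes over both ages, 3563 at 10 days and 4158 at 5 days, and no member lost or gained an interaction call under it. Lengths of all annotated exons, also chosen after seeing the data, lowered the summed level to 476 CPM per kb in PD-1+ and 267 in PD-1- cells at 10 days, and to 283 in PD-1+ and 254 in PD-1- cells at 5 days. Depth limits Rgs16 in PD-1- cells, where 4 to 14 counts per library leave its folds imprecise, and 2 libraries per group limit all calls.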
